A study of Homo sapiens with 6 samples.

Results

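The transcripts examined here encode hnRNP, SR and spliceosomal proteins, and the question was where and how strongly the RNA-binding protein IGF2BP3 crosslinked to them. The set was taken by gene symbol and not by any measured value. It holds every GENCODE v44 protein-coding gene whose symbol begins with HNRNP, SRSF, SNRP, SF3A or SF3B, or PRPF, with a digit after SRSF and PRPF, which gave 73 of 20046 genes. There were 27 hnRNP genes, 12 SR genes, 12 SNRP genes of the small nuclear ribonucleoproteins (snRNPs), 9 SF3 genes and 13 PRPF genes. Clusters on the same strand that overlapped an exon of these genes by at least 1 nt numbered 1895 of the 244620 clusters in the IGF2BP3 libraries, and they held 43421 reads.

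Pre-mRNA splicing is carried out by the spliceosome, which is built from snRNPs and accessory proteins. The SNRP genes encode proteins of the snRNPs, among them the Sm ring around the snRNA. SF3A and SF3B form the part of the U2 snRNP that contacts the branch site, and the PRPF proteins act mainly in the tri-snRNP and in spliceosome activation. SR proteins bind exonic enhancers and mostly favour exon inclusion, whereas hnRNP proteins package nascent transcripts and often oppose it. Many genes of both families control their own level through exons that lead to nonsense-mediated decay. IGF2BP3 is an oncofetal RNA-binding protein with RRM and KH domains that is found mainly in the cytoplasm and binds mRNAs, largely in their 3'UTRs.

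The cells were HCT116, a human colorectal carcinoma line, of the genotype Tet-OsTIR1-PURO in all libraries, labeled with 100 µM 4-thiouridine for 15 h and irradiated at 365 nm. For IGF2BP3 there were 3 RNase I digestions (0.05/0.05, 0.1/0.025 and 0.05/0.025, each as U/µL in the lysate and then on the beads) and 2 RNase T1 digestions (1/1 and 0.25/0.25). The IgG control was digested as the second of the RNase I libraries. Each of the 6 conditions had 1 library and no replicate, so that no test between conditions was possible and the intervals given, at 95%, cover counting error only. The RNase I 0.05/0.05 and RNase T1 1/1 libraries were recovered by electroelution and the other IGF2BP3 libraries from crushed gel, and the antibody is described as also recognizing IGF2BP2 in part. The IGF2BP3 libraries held 182448 to 2362467 cluster reads, the fewest with RNase T1 0.25/0.25, and the IgG library held 324. No cluster of the IgG library lay on any of the 73 genes. In that library 3 reads correspond to 9259 CPM (the count scaled to the total of cluster reads in the library), which is above every level reported below, so the control sets no usable limit for a single gene. Transcript abundance was not measured in these data, and a CPM is therefore a level of crosslinked cluster reads and not of binding per transcript.

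The sites that recurred in every IGF2BP3 library are described first. Clusters of the 5 libraries were merged into sites, and for sites with bases under a cluster of all 5 libraries this common core was read from GRCh38. The sequences below are the cores, or their central 30 nt, of the strongest such site in 11 transcripts with high levels in their role group, and capitals mark the tetramers CATT and CAGT (CAUU and CAGU in RNA), which the study compares between the RNases. They are given 5' to 3' on the transcript strand.
HNRNPA0, chr5:137752928-137752957, minus strand: ctgaagatggactcggccccacatacacat
HNRNPA3, chr2:177221093-177221122, plus strand: ttcacacatactgCAGTtttccagaaacat
HNRNPF, chr10:43386569-43386598, minus strand: caggcagccaacaagcaattaagagCAGTt
HNRNPUL1, chr19:41306906-41306935, plus strand: aatcccctcctgttcactctcccaaccctg
SRSF1, chr17:58005248-58005277, minus strand: aatatccccttgctcctaacatctaCATTc
SRSF6, chr20:43461080-43461109, plus strand: tgcaCATTattatggaacactttcctactt
SRSF10, chr1:23967248-23967277, minus strand: gttcCATTtttgcCATTattggcaaatctt
SNRPD3, chr22:24574125-24574154, plus strand: agtacttactttgaataataacaCATTaca
SF3A1, chr22:30334460-30334489, minus strand: ttgtttcgctcttactCAGTttgggaattc
SF3B3, chr16:70572111-70572140, plus strand: ctctcctgtctacttttgcacacaccctta
PRPF4, chr9:113292398-113292427, plus strand: cacatctcaccactCATTggttaaacaatg

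All 11 lie in 3'UTRs, and 8 of them hold at least 1 of the tetramers, whereas those of HNRNPA0, HNRNPUL1 and SF3B3 hold neither. The 11 are a selection made by no fixed rule. PRPF8, the PRPF gene of highest mean level, is not among them, and its cores lie in coding sequence. Over the 64 cores of the set, each cut to its central 30 nt where longer, 26 held CAUU, 11 CAGU and 35 at least 1 of them. The dinucleotide CA was in 62, and no background was counted for these windows. The windows shown are at most 30 nt long, and the absence of a tetramer says only that these letters are not in the window. Among whole clusters the tetramers were about as frequent as in other transcripts. With RNase I 0.05/0.05, CAGU was in 35% of the 637 clusters on the set (95% Wilson interval 31.4% to 38.8%) and in 34.9% of the clusters on other protein-coding genes. With RNase T1 1/1 the shares were 12.4% (9.57% to 15.9%) of 411 clusters and 11.8%. CAUU was in 40% (36.3% to 43.9%) and 39.5% of clusters with RNase I 0.05/0.05, and in 37.7% (33.2% to 42.5%) and 35.2% with RNase T1 1/1. Shares of the 2 enzymes are not alike in cluster length, with medians on the set of 56 nt and 34 nt. Per 1000 nt of clusters on the set, CAUU occurred 7.99 times with RNase I 0.05/0.05 and 11.5 times with RNase T1 1/1, and CAGU 6.19 and 3.59 times. The largest gap between the set and other genes was for CAUU with RNase I 0.1/0.025, at 46.5% (41.5% to 51.7%) against 41.5%. Clusters on the set were also longer in that library, with a median of 60 nt against 55 nt. Per 1000 nt CAUU occurred there 9.34 times on the set and 8.51 times on other genes. Clusters on the set were slightly lower in GC content than those on other genes, at 42.3% against 43.8% with RNase I 0.05/0.05 and 36.7% against 38.2% with RNase T1 1/1, and the part of base composition in these shares was not tested.

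HNRNPA1, which encodes one of the most abundant hnRNP proteins, and the HNRNPA1-like gene HNRNPA1L3 had the same core sequence, shown here because the reads cannot be assigned to one of them.
HNRNPA1, chr12:54284802-54284825, plus strand: tttttttttttgcaccccatgctg
HNRNPA1L3, chr16:51647039-51647062, plus strand: tttttttttttgcaccccatgctg
Of the reads at these sites 96.8% and 88.6% lay in clusters whose central 25 nt occur more than once in the genome. Of the 1755 clusters of at least 25 nt, 1476 had a central 25 nt that occurs once in GRCh38 and 279, with 7750 of 42268 reads, had one that occurs more often. The reads concerned were 60.8% of those of HNRNPC, 42.2% of HNRNPA3, 82.8% of HNRNPK and 82.3% of HNRNPA1, but 1.16% of HNRNPA0, 3.59% of SRSF1 and 0.433% of PRPF8. GENCODE lists 201 pseudogenes named after genes of the set, and 21 of them had clusters, with 1096 reads in 76 clusters. Of the other genes with levels given below, those with a share over 20% were SNRPE at 66.2%, SRSF3 at 44.1%, SRSF9 at 34.3%, PRPF38A at 30.9%, HNRNPF at 30.5%, SF3B4 at 25.3% and HNRNPU at 24.9%. The values of all these genes, and their differences between the enzymes, are uncertain to this extent.

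The study's criterion for a target was applied to the deposited clusters of each library, and asks for a cluster on the gene that exceeds both 10 CPM and 0.5 T-to-C events per read. The calls are not the study's own lists. Here 4389 protein-coding genes were called with RNase I 0.05/0.05, 3939 with RNase T1 1/1 and 2737 with RNase T1 0.25/0.25. The study reported fewer targets for each enzyme, a larger gap between the enzymes and similar numbers in both RNase T1 conditions. Such events mark crosslinking, since reverse transcription pairs a crosslinked 4-thiouridine with G. In the RNase I libraries at 0.05/0.05, 0.1/0.025 and 0.05/0.025 U/µL, 47, 48 and 47 of the 73 genes were targets, against 21.9%, 21.3% and 22% of all protein-coding genes. In percent these were 64.4% (95% Wilson interval 52.9% to 74.4%), 65.8% (54.3% to 75.6%) and 64.4% (52.9% to 74.4%). After the stronger RNase T1 digestion 44 genes (60.3%, 48.8% to 70.7%) were targets against 19.6% of all genes, and after the weaker 33 (45.2%, 34.3% to 56.6%) against 13.7%. The share in the set was thus about 3 times the background in each library, where the background includes genes that HCT116 cells may not express. Among genes with at least 1 cluster the gap was smaller. Of the genes of the set with a cluster 77% were targets with RNase I 0.05/0.05, against 50.1% of all genes with a cluster, and 76.7% with RNase T1 0.25/0.25, against 82%. Of the set, 26 of the 40 genes with clusters in all 5 libraries were targets in all 5, or 65% against 62.8% of all protein-coding genes with clusters in all 5. A cluster in at least 1 library was found on 63 of 73 genes (86.3%), against 46.7% of all protein-coding genes.

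**Figure D1:**
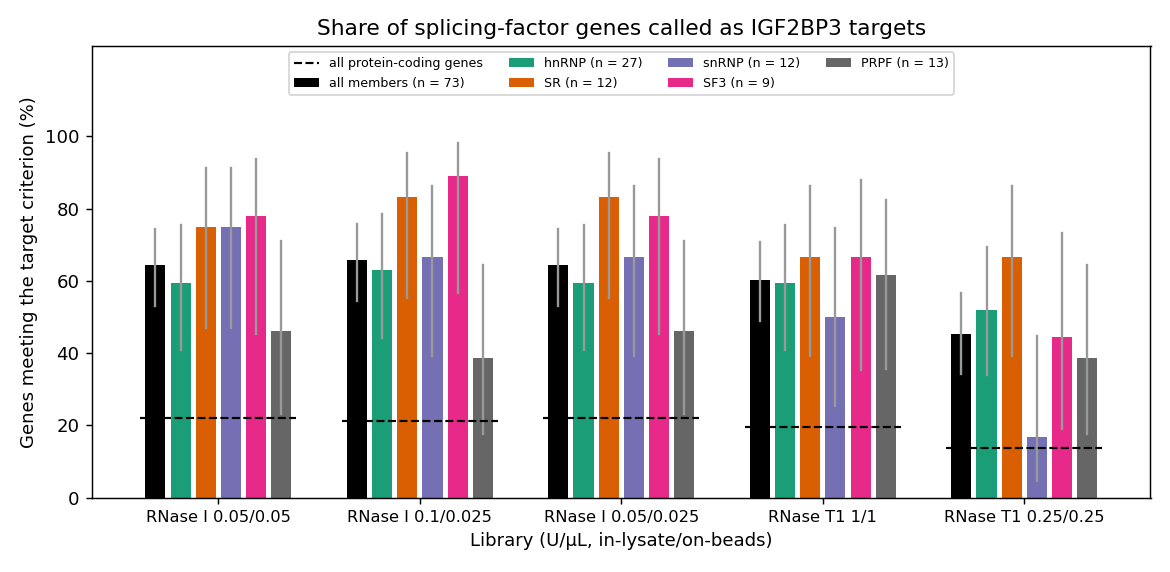
Share of genes meeting the target criterion in each IGF2BP3 library, for the 73 genes (black) and the 5 role groups (colours). Bars start at 0, grey lines are 95% Wilson intervals and dashed lines give all 20046 protein-coding genes. The black bars sit between 45.2% and 65.8%, and the dashed lines between 13.7% and 22%.

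The role groups differed in how steadily they were called. A call in all 5 libraries was made for 26 of the 73 genes (35.6%), against 9.91% of all protein-coding genes. Of the SR genes 8 to 10 of 12 were targets in each library and 7 in all 5 (SRSF1, SRSF2, SRSF3, SRSF6, SRSF7, SRSF8 and SRSF10). Of the hnRNP genes 14 to 17 of 27 were targets in each library and 11 in all 5. Of the SF3 genes each of the 9 had a cluster, and SF3A1, SF3B3 and SF3B4 were targets in all 5 libraries. Of the 12 SNRP genes 9 were targets with RNase I 0.05/0.05, 6 with RNase T1 1/1 and 2 with RNase T1 0.25/0.25, and SNRPD3 was the only 1 called in all 5. In the RNase T1 0.25/0.25 library the SNRP, SF3 and PRPF groups had 111 cluster reads each, and 2 of 12, 4 of 9 and 5 of 13 targets. Of the PRPF genes 5 to 8 of 13 were targets, and PRPF4, PRPF8 and PRPF38A were called in every library. No cluster was found on 10 genes, namely the HNRNPC-like genes HNRNPCL1, HNRNPCL2, HNRNPCL3 and HNRNPCL4, HNRNPA1L2, SRSF12, SNRPN, SNRPF, PRPF31 and PRPF40B. For scale, 3 cluster reads are 1.27 CPM with RNase I 0.05/0.05 and 16.4 CPM with RNase T1 0.25/0.25. Reads outside called clusters were not counted, so the absence of a cluster sets no upper limit on the reads of a gene.

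Together the 73 genes took 0.766% (95% Wilson interval 0.755% to 0.777%) of the cluster reads with RNase I 0.05/0.05, 0.933% with 0.1/0.025, 0.962% with 0.05/0.025, 0.808% with RNase T1 1/1 and 1.11% (1.06% to 1.16%) with RNase T1 0.25/0.25. The highest mean level over the 5 IGF2BP3 libraries was that of HNRNPA0, which encodes an AU-rich-element-binding hnRNP, at 679 CPM. Its levels, always given in the order RNase I 0.05/0.05, 0.1/0.025 and 0.05/0.025, RNase T1 1/1 and 0.25/0.25, were 543, 682, 744, 401 and 1025 CPM. The values of both enzymes overlapped. HNRNPA3, an hnRNP of the A/B type, had 337, 713, 620, 603 and 1036 CPM. HNRNPC, which encodes the protein that coats uridine-rich stretches of nascent RNA, had the steadiest levels of these, at 456, 485, 406, 472 and 586 CPM. HNRNPUL1, an hnRNP U-like protein with a role in the DNA damage response, had 379, 505, 510, 349 and 334 CPM, so that both RNase T1 libraries lay below the RNase I libraries. HNRNPF, which binds G-rich tracts, stood the other way, with 188, 229 and 243 CPM in the RNase I libraries and 575 and 850 CPM with RNase T1.

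Among SR transcripts, SRSF1, encoding the prototype SR protein, had 355, 472, 526, 686 and 817 CPM. The RNase T1 levels were both above the RNase I levels. Of the SRSF1 clusters 37, with 1551 reads, also overlapped another annotated protein-coding gene. SRSF6 had 441, 707, 646, 213 and 756 CPM, with the lowest level in the RNase T1 1/1 library and the highest in the other RNase T1 library. SRSF10, an SR protein that acts as a repressor when dephosphorylated, had 278, 422, 361, 397 and 592 CPM. SRSF3, the smallest SR protein, had 221, 259, 282, 113 and 143 CPM, lower in both RNase T1 libraries. SRSF11 had 175, 230, 209, 213 and 82.2 CPM, the last from 15 reads, and was not a target in that library.

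The SNRP transcripts lay lower. SNRPD3, encoding an Sm ring protein, had 141, 197, 204, 158 and 241 CPM. SNRPD1, another Sm protein, had 81.3, 136, 70.1, 207 and 137 CPM, and SNRPB, the Sm protein B gene, had 110, 139, 183, 62.2 and 132 CPM. SNRPE and SNRPG, which encode the small Sm proteins E and G, had their lowest levels with RNase T1 1/1, at 7.78 and 13.8 CPM from 9 and 16 reads, and their highest with RNase I 0.05/0.025, at 106 and 85 CPM.

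Of the SF3 transcripts, SF3A1, a subunit of SF3A, had 364, 334, 379, 155 and 285 CPM. SF3B3, which encodes a scaffold subunit of SF3B, had 188, 177, 96.9, 71.7 and 82.2 CPM. In both genes the RNase T1 libraries lay below the RNase I libraries. SF3B4, a subunit that crosslinks upstream of the branch site, had 117, 105, 189, 111 and 71.3 CPM. SF3B2 had 50.4, 87.1, 83.5, 17.3 and 153 CPM. SF3B1, the subunit mutated in myelodysplastic syndromes, had 76.2, 51, 55.2, 98.5 and 16.4 CPM. The last SF3B1 value rests on 3 reads.

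PRPF8, the central scaffold of the spliceosome's catalytic core, had 426, 162, 234, 99.4 and 93.2 CPM. Both RNase T1 libraries were below all RNase I libraries. PRPF4, of the tri-snRNP, had 153, 171, 188, 63.1 and 132 CPM. PRPF38A had 57.6, 74.7, 50.7, 81.2 and 164 CPM, and PRPF19, the ubiquitin ligase of the PRP19 complex, had 117, 80.9, 86.5 and 73.5 CPM but no cluster in the RNase T1 0.25/0.25 library. Per kb of canonical transcript the order changed. The mean level was then highest for HNRNPF at 162 CPM per kb and HNRNPC at 152, followed by SRSF6 at 127, HNRNPA3 at 116 and SNRPB at 116, and HNRNPA0, whose transcript is 8713 nt long, had 77.9 CPM per kb.

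**Figure D2:**
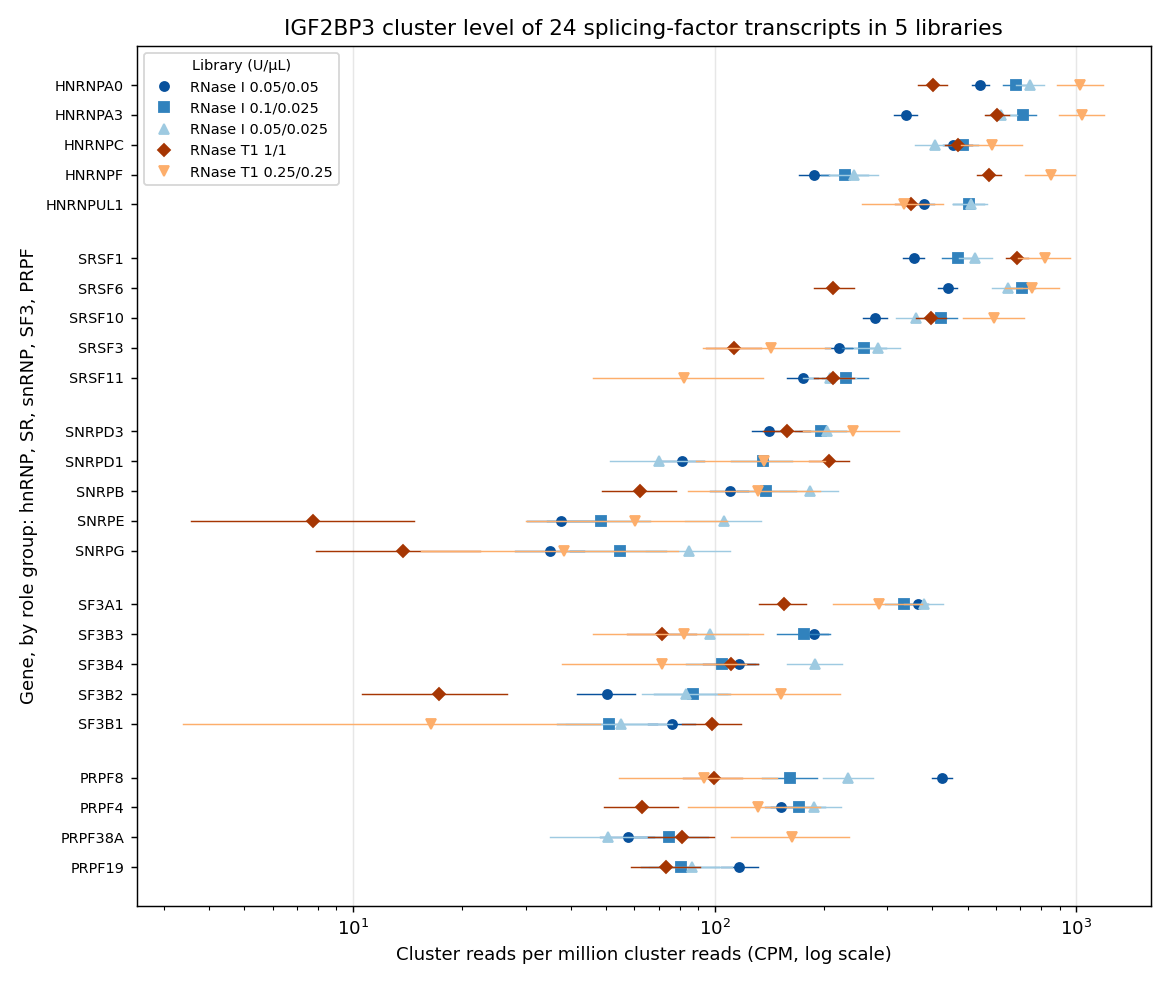
Level of cluster reads (CPM, log axis) of 24 transcripts with the highest means in their role groups, 1 point per IGF2BP3 library with its 95% Poisson interval of counting error. HNRNPF and SRSF1 show both RNase T1 points above the RNase I points, and PRPF8, SF3A1 and SRSF3 below them, while SNRPE is at 7.78 CPM with RNase T1 1/1.

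Reads on these genes lay mostly in clusters that touched a 3'UTR. The share was 85.1% (95% Wilson interval 84.5% to 85.6%), 92.3% and 89.7% in the RNase I libraries and 93.1% and 96.9% with RNase T1, each above the 81.6%, 83.1%, 81.6%, 87.9% and 87.9% of other protein-coding genes. Clusters within the coding sequence held 14.3%, 7.55%, 10.2%, 6.05% and 2.81% of the reads on the set in the 5 libraries, and the 5'UTR at most 0.332%. When clusters touching both features were given to the coding sequence, the 3'UTR share of the set was 65.4%, 79.3%, 77%, 89.8% and 90.4%, against 68.9%, 74.6%, 72.1%, 85.6% and 84.3% in other genes, so that with RNase I 0.05/0.05 the direction turned. The SR transcripts had 96.7% to 99.1% of their reads in clusters touching the 3'UTR, and the hnRNP transcripts 90.9% to 97.8%. With coding sequence first these were 70% to 93.4% and 69.6% to 97.8%. With the 3'UTR first, the PRPF transcripts had the lowest shares of the role groups, at 51.5%, 70.7%, 59.7%, 76.1% and 76.6%. The SF3 transcripts then had 75.1%, 83.8%, 78.3%, 88.9% and 94.6%. With coding sequence first both groups were much closer. The PRPF shares were then 44.3%, 65.7%, 57.2%, 70.7% and 76.6%, and the SF3 shares 48.4%, 64.7%, 55.9%, 71.6% and 84.7%. With the 3'UTR first, 47.5% of the PRPF reads lay in the coding sequence with RNase I 0.05/0.05.

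Most of the PRPF reads in coding sequence were on PRPF8. The gene has a 3'UTR of 176 nt in a transcript of 7280 nt, and 1291 of its 1425 reads (90.6%) were in coding sequence, spread over 93 clusters in 5 libraries. Of the 3 coding sites of the set found in all 5 libraries, 2 were in PRPF8, with 30.1 and 29.4 CPM on average, and the third, in HNRNPC, had 37.1 CPM but 76.4% of its reads in clusters with a copy elsewhere in the genome. Another 4 genes, of which SNRPA, SF3A2 and PRPF6 were named after their values were seen, had more reads in coding sequence than in the 3'UTR. SNRPA, encoding the U1 snRNP protein A, had 73.2% of 190 reads there, SF3A2 50.6% of 154, PRPF39 49.6% of 226 and PRPF6 all of its 5.

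Within the 3'UTR the reads of the set as a whole were concentrated near the stop codon, but those of the SNRP group hardly were. Clusters were placed by their midpoint on the 3'UTR of the Ensembl canonical transcript, which was divided into 5 equal bins. A cluster that touched this 3'UTR but was centred outside it was placed at its nearest edge. In the set 51.5%, 49.8% and 48.8% of the 3'UTR reads of the RNase I libraries and 46.3% and 52.6% of those of the RNase T1 libraries lay in the proximal bin. In other protein-coding genes the proximal bin held 27.8%, 27.9%, 28.7%, 26.5% and 30.1%. The distal bin held 4.18% to 8.19% in the set and 12.7% to 13.9% in other genes. Without the 5 transcripts of highest level (HNRNPA0, HNRNPA3, SRSF1, SRSF6 and HNRNPC) the proximal share was 41.5% to 45%. Without the clusters whose central 25 nt occur more than once in the genome it was 46.8% to 53.3%. With only 3'UTRs of at least 1 kb it was 48.5% to 57.3%, against 27.8% to 32.3% in other genes. With only clusters centred inside the 3'UTR it was 45.4% to 52.6%, against 26.3% to 30% in other genes. By role group, over all clusters, the proximal bin held 57.5% to 80% for SF3 and 48.6% to 54% for hnRNP transcripts. It held 45.5% to 64.7% for PRPF and 37% to 51.7% for SR transcripts. For SNRP transcripts it held 35.6%, 30.4%, 27.5%, 27.9% and 32.4%, near the values of other genes.

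Counted by gene, 29 of 57 transcripts of the set with at least 10 3'UTR reads in the RNase I 0.05/0.05 library (50.9%) had more than 50% of them in the proximal bin, against 22.6% of other genes. With RNase T1 1/1 these were 22 of 51 (43.1%) against 19.5%. In the RNase I 0.1/0.025 and 0.05/0.025 and the RNase T1 0.25/0.25 libraries the shares were 48%, 44.7% and 41.7%, against 24.4%, 24.9% and 25.8%. With only clusters centred inside the 3'UTR, the share with RNase I 0.05/0.05 was 25 of 56 (44.6%), against 20.9%. The pattern was not shared by all groups or transcripts. For the SR genes, 9 or 10 in each library, these shares were 40%, 30%, 40%, 20% and 22.2% in the library order above. The SNRP shares, over 4 to 9 genes, were 33.3% to 55.6%. HNRNPU, which encodes the scaffold attachment factor A, had 92% to 100% of its 3'UTR reads in the proximal bin in each library. Its whole 3'UTR is 4156 nt long. HNRNPR had 86.3% to 100% there (3'UTR of 5769 nt), HNRNPA0 86.6% to 98.8% (7501 nt) and HNRNPA2B1 89.3% to 100% (2436 nt). HNRNPU and HNRNPR were chosen after their values were seen. SRSF1 had 65.7% to 83.9%, and SRSF6 72.6%, 63.9%, 75.8%, 33% and 81.9%. The third SRSF6 value rests on a cluster with 328 of 433 reads that was centred outside the 3'UTR and placed at its start. In contrast SNRPD3 had between 0% and 10.8% there, and its strongest core lay 2164 nt into a 3'UTR of 2997 nt. SRSF10 had 10.7% to 22.3%, with the strongest core 3882 nt into 6798 nt. Which 3'UTR isoforms the cells held was not measured.

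**Figure D3:**
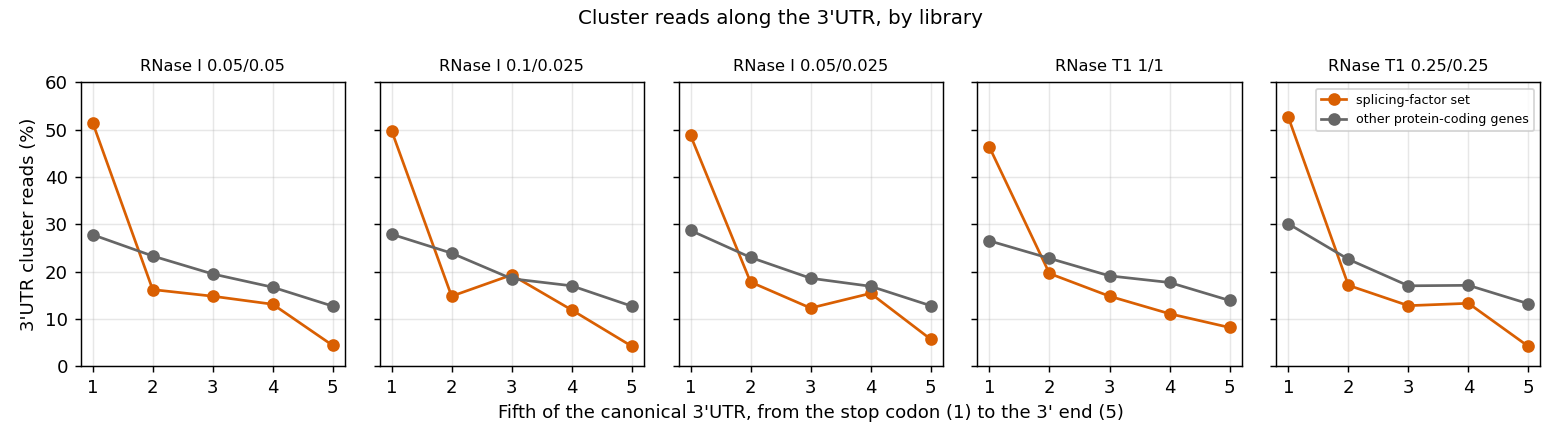
Percentage of 3'UTR cluster reads in each of 5 equal bins of the canonical 3'UTR, from the stop codon to the 3' end, for the 73 genes (orange) and other protein-coding genes (grey), 1 panel per IGF2BP3 library. In each panel the orange line starts at 46.3% or more and the grey line at 30.1% or less.

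The 1895 clusters merged into 630 sites, of which 71 (11.3%) in 37 genes were found in all 5 libraries. These held 69.4% of the reads on the set, and 308 sites were seen in 1 library. Of the 71, 68 were in 3'UTRs and 3 in coding sequence. In the hnRNP group 35 of 197 sites recurred in all 5 libraries with 81.5% of the reads, and in the PRPF group 8 of 138 with 36.6%. HNRNPC had 7 such sites, HNRNPA3 6, and SRSF6 and SRSF10 4 each, while HNRNPA0 had 1, a merged site of 1516 nt. Of the 61 cores that lay on a canonical 3'UTR 28 (45.9%) were in the proximal bin and 4 in the distal bin, and their median distance from the 3'UTR start was 357 nt. The core of SRSF6 shown above lay 33 nt from the 3'UTR start, that of HNRNPF 56 nt, SF3A1 122 nt, SRSF1 146 nt, HNRNPA0 209 nt and SF3B3 314 nt.

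The strength of a recurrent site varied with the library. The HNRNPA0 site had 513, 668, 710, 347 and 981 CPM and 0.593 conversion events per read over the libraries. The SRSF1 site had 236, 378, 413, 468 and 685 CPM, so that both RNase T1 levels were the highest. The SRSF6 site had 297, 429, 489, 83.8 and 592 CPM, and the HNRNPF site had 140, 223, 209, 499 and 850 CPM. For HNRNPF 35.4% of the site's reads were in clusters with a copy elsewhere in the genome. The part of a 3'UTR under clusters was broader with RNase I, with a median of 31.6% of the 3'UTR in the 59 genes of the set with a 3'UTR cluster with RNase I 0.05/0.05 and of 12.7% in the 55 with RNase T1 1/1. In other genes these medians were 23.3% and 7.79%. HNRNPC was covered to 75.6% and 36.1% of 2079 nt, and HNRNPA0 to 24.5% and 11%.

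**Figure D4:**
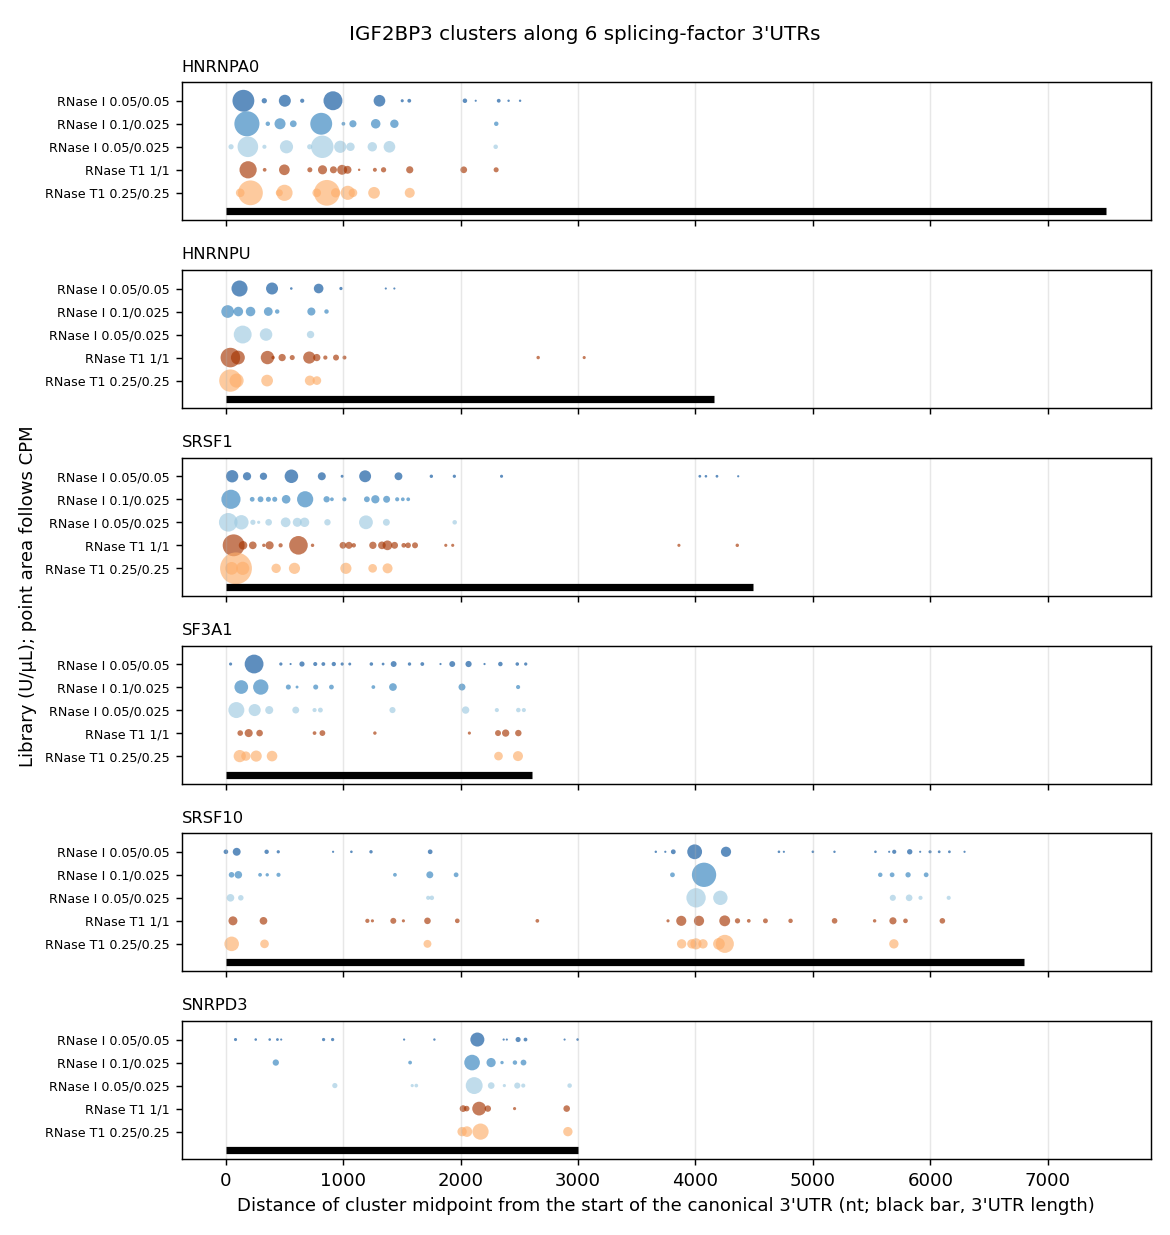
Midpoints of IGF2BP3 clusters along the canonical 3'UTR of 6 transcripts (x axis, nt from its start, black bar for its length), 1 row per library, with point area following CPM down to a minimum size. Midpoints outside the 3'UTR are drawn at its nearest edge. Points crowd near the start in HNRNPA0, HNRNPU, SRSF1 and SF3A1, whereas in SRSF10 and SNRPD3 the largest points lie far into the 3'UTR, near the cores at 3882 and 2164 nt.

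RNase I and RNase T1 were set against each other gene by gene within 2 pairs of libraries recovered in the same way, RNase I 0.05/0.05 with RNase T1 1/1 (electroeluted) and RNase I 0.05/0.025 with RNase T1 0.25/0.25 (crushed gel), as the log2 ratio of CPM with 1 read added. In both pairs the enzyme and its concentration differ together and cannot be told apart. In the electroeluted pair the median over 61 genes of the set with at least 10 reads was -0.0566, and over 8234 protein-coding genes 0.08. There 19 genes of the set were at least 2-fold higher with RNase I, or 31.1% against 26.9% of all genes, and 7 with RNase T1, or 11.5% against 17.6%. In the crushed-gel pair the median was 0.23 over 52 genes and 0.62 over 4946 protein-coding genes. In this pair 14 genes (26.9%) were at least 2-fold higher with RNase I, against 43.7% of all genes, and 5 (9.62%) with RNase T1, against 9.77%. The set as a whole thus lay near the background in the electroeluted pair and lower in the crushed-gel pair. Its sign in the latter changed with the filter and the pseudocount, as it was -0.48 over genes with at least 20 reads in each library. That filter favours genes high with RNase T1. The crushed-gel RNase T1 library held 182448 cluster reads against 670712 with RNase I, so 20 reads are a higher CPM there. No median of all genes under this filter is given, so the value has no background.

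By role, the medians were 1.23 and 1.34 for SF3 transcripts, 0.67 and 0.98 for SNRP, -0.15 and -0.47 for hnRNP, -0.24 and 0.02 for SR, and -0.24 and 0.47 for PRPF transcripts, in the electroeluted and the crushed-gel pair. These values include genes that passed the filter through 1 library alone. In the crushed-gel pair 3 of 8 SF3 genes, 4 of 9 SNRP genes and 2 of 7 PRPF genes had no read with RNase T1, and their ratios depend on the read added. With at least 20 reads in each library, a filter by role added after seeing the data, the SF3 medians were 0.07 over 7 genes and -0.26 over 2, and the SNRP medians -0.17 over 5 and -0.26 over 3. In both pairs the RNase T1 library is the smaller, so this filter too favours genes high with RNase T1. Of 27 genes with at least 20 reads in each of the 4 libraries, 23 had the same sign in both pairs, 7 higher with RNase I, or 25.9% against 25.7% of the 1571 protein-coding genes that met this filter, and 16 higher with RNase T1, or 59.3% against 44%. Ranked by the electroeluted pair, the highest 3 of these were SRSF9, HNRNPA1 and PRPF4. SRSF9 had 124, 127, 201, 24.2 and 121 CPM in the library order above, and its log2 ratios were 2.31 (95% counting interval 1.76 to 2.86) and 0.69 (0.05 to 1.32). HNRNPA1 had 74.5, 202, 242, 18.1 and 208 CPM. Its ratios were 1.98 and 0.19, and the interval of the second, -0.32 to 0.69, included 0. PRPF4 had ratios of 1.26 (0.9 to 1.63) and 0.47 (-0.15 to 1.09).

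The lowest 3 were HNRNPF, HNRNPA2B1 and SNRPD1. HNRNPF had log2 ratios of -1.61 (-1.78 to -1.44) and -1.81 (-2.12 to -1.49), close to each other in both pairs. HNRNPA2B1, whose protein is a reader of nuclear RNA and a sorter of exosomal miRNAs, had 59.3, 97.1, 76, 153 and 186 CPM and ratios of -1.37 (-1.68 to -1.05) and -1.31 (-1.93 to -0.69). SNRPD1 had ratios of -1.35 (-1.62 to -1.08) and -0.99 (-1.68 to -0.31). PRPF8, with 17 reads in its smallest library, had 2.09 (1.81 to 2.37) and 1.26 (0.55 to 1.96). SF3B2 changed sign, with 1.48 (0.82 to 2.15) in the electroeluted and -0.9 (-1.55 to -0.26) in the crushed-gel pair.

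**Figure D5:**
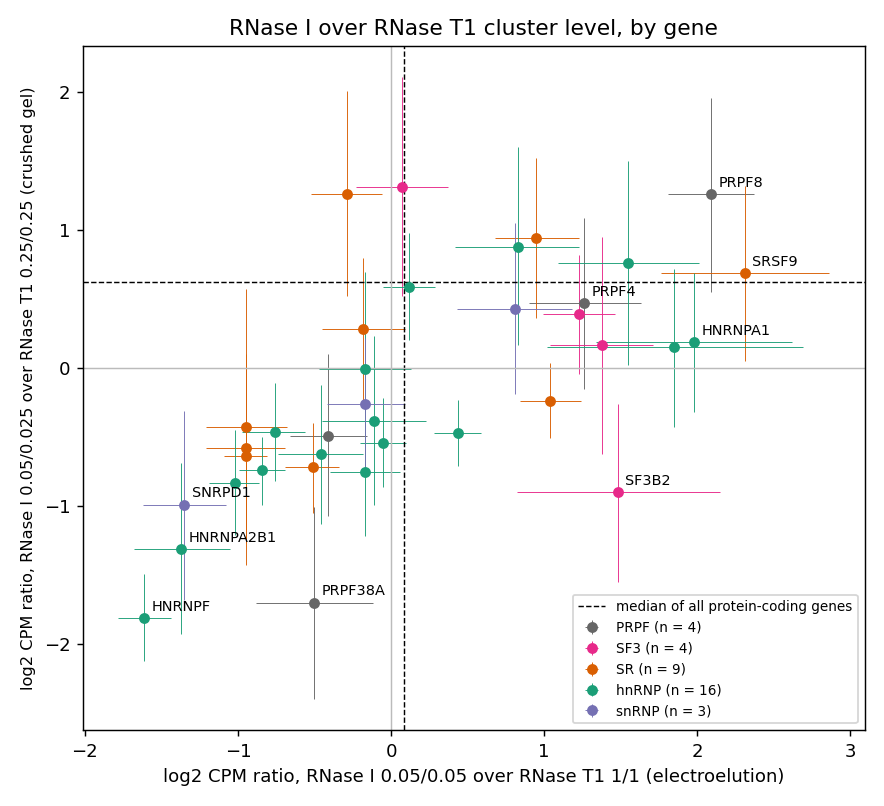
Log2 ratio of CPM, RNase I over RNase T1, in the electroeluted pair (x axis) and the crushed-gel pair (y axis) for the 36 genes of the set with at least 10 reads in each of the 4 libraries, coloured by role group, with 95% counting intervals. Dashed lines are the medians of all protein-coding genes. HNRNPF, HNRNPA2B1 and SNRPD1 are below 0 in both pairs, and SF3B2 is on opposite sides.

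Reads on exons found only in transcripts that are not of the protein-coding type were few, at most 0.535% of the reads on the set in a library. SRSF3 had the most, 48 of 1075 reads (4.47%). They lay in 7 clusters between 36599980 and 36600263 on the plus strand of chromosome 6, within exons of its nonsense-mediated decay and retained-intron transcripts, and were found in each library except RNase T1 0.25/0.25. Their levels were 2.12 to 9.96 CPM, below the criterion of 10 CPM. The remaining genes named by this count were HNRNPUL2-BSCL2, a readthrough gene, with 38 reads, each in clusters shared with BSCL2, PRPF39 with 30 reads on retained-intron or decay transcripts, SRSF10 with 13 and PRPF18 with 11.

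Other genes of the splicing machinery, in a list of 71 that did not fall under the symbol rule, were called to a similar extent. Targets were 41 (57.7%), 39 (54.9%) and 43 (60.6%) in the RNase I libraries and 38 (53.5%) in both RNase T1 libraries, and 27 were targets in all 5. For all protein-coding genes these shares were 13.7% to 22% per library and 9.91% in all 5. All 10 SR-related genes had clusters and 8 were targets in all 5 libraries. The genes named next were chosen after their values were seen. SRRM2, a nuclear speckle scaffold, had 1243, 1002, 878, 650 and 521 CPM, and TRA2B, a splicing activator, had 339, 424, 447, 629 and 1124 CPM, the first lower and the second higher in both RNase T1 libraries. Of the 14 other regulators 10 were targets in all 5, and MBNL1, a regulator of alternative splicing in development, had 1832, 1592, 1691, 2287 and 2450 CPM, above every gene of the set in each library. Of the 25 U snRNP and Sm-like genes 5, of the 16 genes of the PRP19 complex and the catalytic steps 2, and of the 6 SR protein kinases 2 were targets in all 5 libraries.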

How the data were processed

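Reads were trimmed to a length between 18 and 45 nt (Trimmomatic 0.30) and mapped with up to 3 mismatches to GRCh38.p13 (Bowtie 0.12.7). Duplicates were then removed by unique molecular identifier (UMI-tools 1.1.1), after which PARalyzer was run by the authors on each library separately. The authors deposited, for each cluster, raw counts of reads and of conversion events. The authors' mode score, deposited as a fraction, was not used. CPM here is relative to all cluster reads of a library, which is not its sequencing depth. Genes and features came from GENCODE release 44, and 3'UTR overlap took precedence over coding sequence, then 5'UTR, then remaining exons. All 1895 clusters matched the GRCh38 sequence at their coordinates, and their central 25 nt were counted on both strands of the 25 chromosomes.

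Python 3.11.15 was used with pandas 2.3.3, numpy 2.4.6 and scipy 1.17.1, and matplotlib 3.10.9 for plots. Overlap and target calls were tested on simulated data. Wilson and Poisson intervals cover counting error only, and no test was made. The genes, lists and alternatives were chosen with earlier results of these data known. Genes were named by a rule: in each role group the 5 with the highest mean CPM, the 3 highest and 3 lowest ratios with at least 20 reads in each library and 1 sign in both pairs, those without a cluster, and the 5 with most reads on exons of other transcript types. A gene that this rule names is not reported here. Alternatives changed the CPM and conversion criteria, the gene and feature assignment, the filter, scaling and pseudocount of ratios, the merging of sites and the weighting of clusters.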

Additional observations from a re-analysis of the deposited data

How the results depend on the processing

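Of 88 recomputed values 37 stayed within the spread allowed (1.5 times for counts, the Wilson interval for shares, 0.1 for log2 medians), 48 moved beyond it and 3 changed sign. Libraries are in the order used above. Above 0.75 conversion events per read, targets were 13, 23, 19, 14 and 21, with 6.73% to 12.2% of all genes. With at least 20 reads per cluster they were 31 in the RNase I 0.05/0.025 library (10.5% of all genes) and 6 after RNase T1 0.25/0.25 (2.52%), and above 20 CPM 27 after RNase T1 1/1 (11%). Without clusters of more than 1 genomic copy, an alternative added after seeing the data, they were 40, 44, 42, 41 and 32. The share of cluster reads was 0.903%, 1.1%, 1.15%, 0.962% and 1.33% over protein-coding clusters, 0.737%, 0.902%, 0.926%, 0.769% and 1.05% with clusters on 1 gene only, and 0.632%, 0.746%, 0.745%, 0.693% and 0.948% without repeated clusters. The 3'UTR share with coding sequence first was 65.4%, 79.3%, 77%, 89.8% and 90.4%, and with RNase I 0.05/0.05 it was 84.2% on canonical transcripts and 84% without repeated clusters. The median log2 ratio of the electroeluted pair was -0.169 with at least 20 reads in each library. That of the crushed-gel pair was -0.476 with this filter, -0.39 with the median of all genes at 0 and -0.0918 with 5 reads added. The sites in all 5 libraries were 43 from clusters of at least 10 reads. Weighted by reads, CAGU was in 63%, 56.2%, 58.2% and 22.4% of clusters, the last with RNase T1 1/1, and CAUU in 66.1%, 64.3%, 63.5%, 51.3% and 51.3%. In clusters above 10 CPM, CAGU was in 62.7%, 46.2% and 43.4% with RNase I, and CAUU in 67.3%, 55.8%, 53.3% and 45.6%, the last with RNase T1 1/1. The causes were not tested. In the RNase T1 0.25/0.25 library 10 CPM is 1.82 reads, against 23.6 reads with RNase I 0.05/0.05. A cluster of 3 reads is at 16.4 CPM in the former, so that calls there rest on the conversion criterion, in some genes from few reads.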
